A study of Mus musculus with 8 samples.

Results

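P2X receptors are cation channels opened by extracellular ATP, and pannexins are membrane channels through which cells release ATP. The members were the 9 rows of the count table with the symbols P2rx1 to P2rx7, Panx1 and Panx2, out of 53278 gene symbols. All 9 passed the filter on low counts, as did 20140 genes in all. RNA-seq libraries were made from total RNA of whole forebrains of male C57BL/6J mice, 10 to 20 weeks old. The 4 depleted mice received food with PLX3397, an inhibitor of the CSF1R kinase that microglia need to survive, for 9 days. The 4 control mice received control food over the same time. The drug acts on any cell that depends on its target kinases, so the depleted mice are a model of drug treatment and not of microglial loss alone.

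Each P2X receptor is a trimer of subunits, and P2X7 needs far more ATP than the others to open. In the brain P2X4 and P2X7 are studied above all on microglia, where P2X7 opening leads to potassium efflux, assembly of the NLRP3 inflammasome and release of interleukin-1 beta. P2X1, P2X2 and P2X3 are best known from smooth muscle, platelets and sensory and autonomic neurons. Pannexin 1 is present in neurons and glia and pannexin 2 mainly in neurons of the central nervous system.

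Libraries held between 48455538 and 68406688 counts, so that 1 CPM (a count scaled to library size, with TMM factors that correct for library composition) stood for 48.6 to 69.3 counts. The tissue label and the depletion were checked first. Csf1r, the drug target, averaged 1.22 CPM in depleted mice and 58.6 CPM in control mice (log2 fold change -5.57 with an SE of 0.31; edgeR's quasi-likelihood test, adjusted p = 1.01e-05). All 20 microglial markers fell, with a median log2 fold change of -5.03, and their summed level was 24.5 to 32.3 CPM in depleted mice and 378 to 461 CPM in control mice. Itgam had 0 counts in 1 depleted library, and the other 19 markers were detected in every library. Neuronal markers were abundant throughout, at summed levels of 5794 to 7479 CPM in depleted mice and 5873 to 7566 CPM in control mice. In bulk RNA, fewer cells of a type cannot be told apart from less RNA per cell. Hypothalamic markers differed between libraries within both groups. Their score (mean log2 CPM of 10 genes) was -0.48, 3.14, 3.14 and 1.20 in depleted mice 1 to 4. In control mice 1 to 4 it was 0.59, 3.17, 3.22 and -0.26. Hcrt, a hypothalamic gene, had 0.0823 to 0.222 CPM in mice 1 and 4 of both groups. It had 25.4 to 32.5 CPM in mice 2 and 3 of both groups. Striatal markers also varied between libraries. The striatal marker score (mean log2 CPM of 10 genes) was 7.53, 5.81, 7.82 and 7.47 in depleted mice 1 to 4. It was 4.30, 6.82, 6.19 and 5.35 in control mice 1 to 4. The striatal scores of the groups overlapped, but their means were 7.16 (SD 0.91) in depleted and 5.66 (SD 1.09) in control mice. The exact two-sided permutation test of the scores gave p = 0.0857. All 10 striatal markers had a positive log2 fold change, with a median of 1.46, and 0 had an adjusted p under 0.05 in edgeR. At an unadjusted p under 0.05 there were 9 in edgeR, against 11.0% of all genes.

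The promoters of P2rx7 and P2rx4 are shown because these neighbouring genes, 16.1 kb apart on chromosome 5, encode the receptors usually assigned to microglia, and that of Nlrp3 because it lies downstream of P2X7 and was strongly lower in depleted mice. Each window runs from 250 bases before to 50 bases after a RefSeq start (GRCm38.p6). Such windows were found for 5 of the 9 members. Capitals mark the letters GAGGAA, a core of the binding site of the myeloid factor PU.1, on either strand (TTCCTC on the printed strand is the reverse complement).
P2rx7, first start (chr5:122643677-122643976, plus strand): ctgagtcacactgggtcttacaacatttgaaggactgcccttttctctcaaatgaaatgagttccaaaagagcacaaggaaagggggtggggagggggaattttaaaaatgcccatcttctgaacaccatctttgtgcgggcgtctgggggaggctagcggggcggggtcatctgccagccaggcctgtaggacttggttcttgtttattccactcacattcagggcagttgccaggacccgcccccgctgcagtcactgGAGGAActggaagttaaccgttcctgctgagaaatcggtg
P2rx7, second start (chr5:122650133-122650432, plus strand): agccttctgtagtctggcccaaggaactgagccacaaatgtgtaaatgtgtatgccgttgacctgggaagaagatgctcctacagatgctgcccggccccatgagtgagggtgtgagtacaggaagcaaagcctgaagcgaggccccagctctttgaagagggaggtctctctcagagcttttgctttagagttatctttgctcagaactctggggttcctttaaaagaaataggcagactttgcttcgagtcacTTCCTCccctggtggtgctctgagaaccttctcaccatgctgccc
P2rx4 (chr5:122707294-122707593, plus strand): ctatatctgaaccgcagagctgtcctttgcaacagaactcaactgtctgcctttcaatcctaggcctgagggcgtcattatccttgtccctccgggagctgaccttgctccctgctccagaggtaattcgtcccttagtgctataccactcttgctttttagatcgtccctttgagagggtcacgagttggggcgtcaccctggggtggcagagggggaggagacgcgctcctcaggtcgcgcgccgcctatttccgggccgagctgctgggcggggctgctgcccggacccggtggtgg
Nlrp3, first listed start (chr11:59542436-59542735, plus strand): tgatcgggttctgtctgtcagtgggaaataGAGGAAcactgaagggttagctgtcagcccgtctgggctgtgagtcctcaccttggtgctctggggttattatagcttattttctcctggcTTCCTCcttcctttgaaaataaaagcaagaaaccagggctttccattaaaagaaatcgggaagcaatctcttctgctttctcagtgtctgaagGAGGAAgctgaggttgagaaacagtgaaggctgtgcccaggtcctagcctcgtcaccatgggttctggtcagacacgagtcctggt
The motif occurred once in each P2rx7 window, beginning 10 and 5 bases past the start, and 3 times in this Nlrp3 window, while these letters were not in the window of the second listed Nlrp3 start. Among other genes called lower, P2ry13 and Il1a had 1 match each, and the windows of P2ry12, Irf5 and Irf8 (both starts) had 0. Among the other members it occurred once in the P2rx6 window, and these letters were not in the windows of P2rx4, P2rx1 or Panx1. Of all 32851 windows 28.3% held the motif, so a match is common. The P2rx4 window held 18 CG dinucleotides and the Panx1 window 25, against 8 and 4 in the P2rx7 windows and a median of 7 over all windows.

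Per kilobase of annotated exon, Panx2 was by far the most abundant member. Its level was 23.9 ± 1.88 CPM per kilobase in depleted mice and 27.1 ± 2.48 in control mice (SD, n = 4 per group, as for all errors below unless an SE is named). Panx1 followed with 3.36 ± 0.137 CPM per kilobase in depleted mice and 2.99 ± 0.151 in control mice. P2rx6 (1.83 ± 0.239 in depleted and 1.96 ± 0.162 in control mice) and P2rx4 (2.06 ± 0.313 in depleted and 1.89 ± 0.181 in control mice) were level within their spread. P2rx7 lay below both, at 1.13 ± 0.156 CPM per kilobase in depleted mice and 1.45 ± 0.0886 in control mice. P2rx5 and P2rx3 came next, at 0.520 and 0.496 CPM per kilobase in depleted mice and 0.929 and 0.679 in control mice, and overlapped in spread. P2rx1 and P2rx2 were near the detection limit, at 0.0647 and 0.0733 CPM per kilobase in depleted mice and 0.106 and 0.0759 in control mice, and did not differ from each other beyond their spread.

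**Figure D1:**
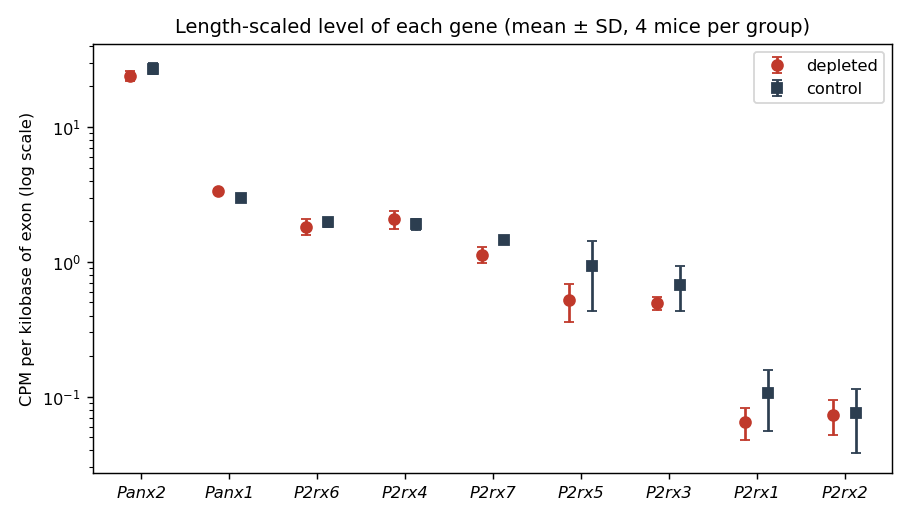
Level of each member in CPM per kilobase of annotated exon, on a log axis, as mean ± SD of 4 depleted (circles) and 4 control (squares) mice. Panx2 lies above all others, at 23.9 in depleted and 27.1 in control mice, and P2rx1 and P2rx2 lie lowest.

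No member passed the test between depleted and control forebrains. In edgeR 0 of 9 members had an adjusted p under 0.05 (adjusted over all 20140 genes tested, of which 1.16% were called, 1.11% lower and 0.0546% higher). DESeq2 and limma-voom also called 0 members, where they called 2.31% and 1.16% of all genes. At an unadjusted p under 0.05 there were 4 members in edgeR (P2rx7, P2rx5 and Panx2 with a negative and Panx1 with a positive fold change), against 11.0% of all genes. There were 4 in DESeq2 and 2 in limma-voom, for which the unadjusted share over all genes was not computed. Of the 9 members 7 had a negative log2 fold change, with a median of -0.18, whereas 50.1% of all genes tested had one. Panx1 was the 1 member without overlap between the groups, a pattern seen in 5.77% of all genes (2.28% with higher values in depleted mice). The members' adjusted p ranged from 0.305 to 0.985 in edgeR.

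**Figure D2:**
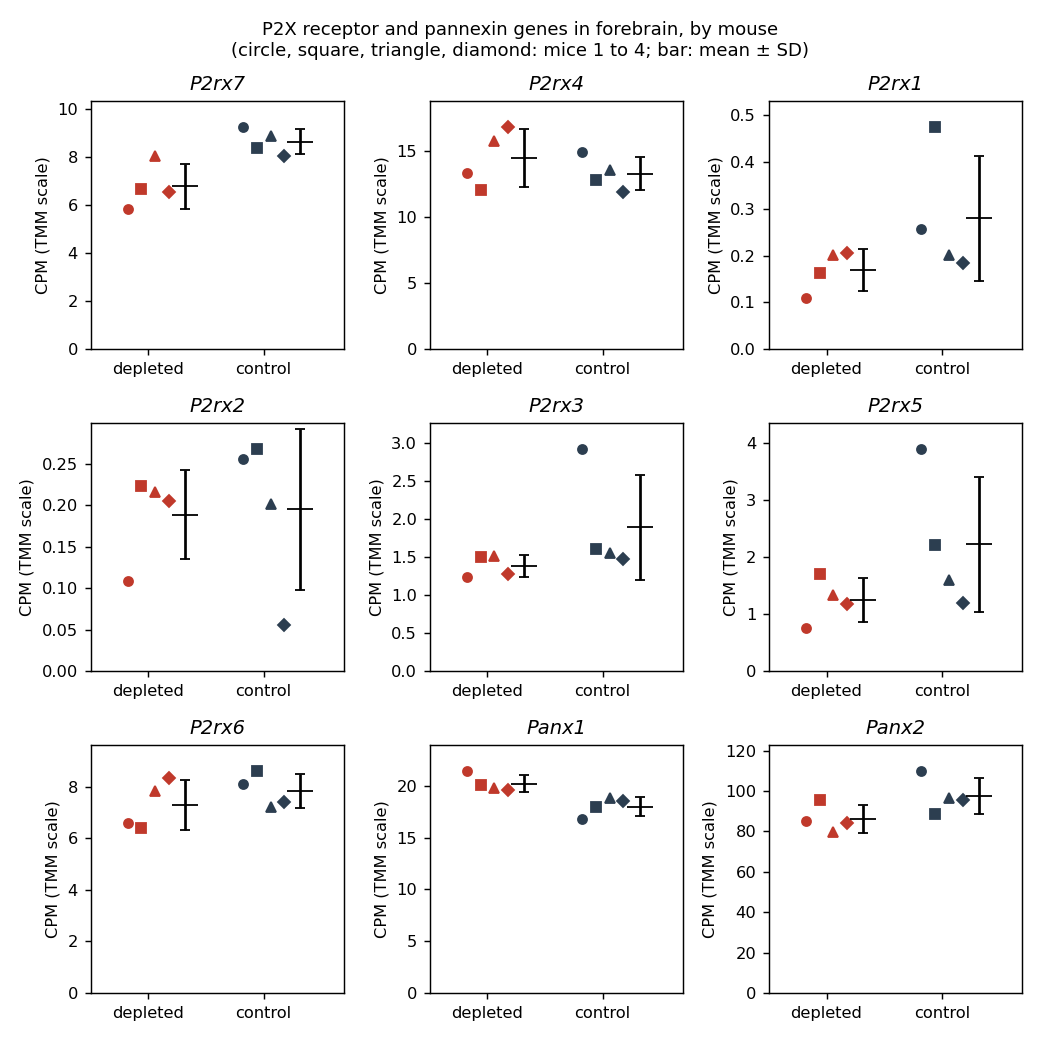
CPM on the TMM scale of each member in every mouse, with depleted mice left of control mice, symbols for mice 1 to 4 and mean ± SD beside them. Panx1 is the only member whose groups do not overlap, and P2rx3 has 1 high control mouse, at 2.92 CPM.

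P2rx7, on chromosome 5 from 122643911 to 122691432 (mm10), encodes the channel that activates the inflammasome. Its level was 5.82, 6.67, 8.05 and 6.54 CPM in depleted mice 1 to 4, and 9.23, 8.38, 8.88 and 8.03 CPM in control mice 1 to 4. Depleted mice 1, 2 and 4 lay below every control mouse, and depleted mouse 3 lay level with the lowest control mouse. The means were 6.77 ± 0.932 CPM in depleted mice and 8.63 ± 0.529 CPM in control mice, a log2 fold change of -0.35 (SE 0.11). Depleted mice thus kept 78.6% of the control level, with a 95% interval of 66.0% to 93.5%. The unadjusted p was 0.0117 and the adjusted p 0.305 (edgeR), and an exact permutation test of the log2 CPM values (two-sided, 70 splits) gave p = 0.0571, where the smallest possible value is 0.0286. Over the 17 alternative fits the log2 fold change was between -0.44 and -0.29. The exons of P2rx7 hold Mir8115 on the same strand, on 1.99% of their length.

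Markers of oligodendrocyte precursors, which also carry P2X7 receptors, varied over the same mice. The score of 8 precursor markers was 4.57, 4.78, 4.86 and 4.62 in depleted mice 1 to 4, and 5.03, 5.19, 5.17 and 4.82 in control mice 1 to 4 (mean log2 CPM). Depleted mouse 3 had the highest score of its group, as it had for P2rx7, and control mouse 4 the lowest of its own for both. Control mouse 1 had the highest P2rx7 of its group, but control mouse 2 had the highest score. Over the 8 mice P2rx7 had Pearson's r of 0.88 with this score and of 0.83 with the microglial marker score. With the neuronal marker score r was -0.75. The precursor and microglial scores both had lower means in depleted mice, so r over all 8 mice includes the difference between groups. These r were not computed within groups. Of those 8 markers Pdgfra, Cspg4 and Matn4 fell and 5 were not called in edgeR, where 1.11% of all genes were called lower. The list median was -0.35. DESeq2 called 4 of the list and 2.31% of all genes. Gpr17, a marker of precursors that are starting to differentiate, stood on the other side at 0.60 (SE 0.16, adjusted p = 0.177 in edgeR). Its groups did not overlap, as in 5.77% of all genes (2.28% with higher values in depleted mice). Sox10 stood at 0.23. The part of precursors or of microglia in the P2rx7 values was not tested.

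P2rx4, the next gene on chromosome 5 (122707544 to 122729738, mm10), encodes a channel held largely in lysosomes and linked to pain signalling by spinal microglia. It had 13.3, 12.04, 15.8 and 16.8 CPM in depleted mice 1 to 4, and 14.9, 12.8, 13.6 and 11.9 CPM in control mice 1 to 4. The groups overlapped, and depleted mice 3 and 4 were the highest of all 8 mice. The log2 fold change was 0.12 (SE 0.12, adjusted p = 0.774 in edgeR), which corresponds to 109% of the control level with a 95% interval of 90.5% to 131%. The interval thus reaches no lower than 90.5%, while P2ry12, a microglial P2Y receptor gene measured in the same libraries, kept 4.40% of its control level. The choroid plexus and ependyma score was also highest in depleted mice 3 and 4, at 3.18 and 3.41, against 1.73 and 2.33 in depleted mice 1 and 2 and 2.04 to 2.69 in control mice (mean log2 CPM of 10 genes). The mature oligodendrocyte score (11 genes) was highest in the same 2 mice, at 8.35 and 8.12. In control mice that score, like P2rx4, was highest in mouse 1 (7.86) and lowest in mouse 4 (7.06). The choroid plexus and ependyma score was instead highest in control mouse 3. Over the 8 mice P2rx4 had Pearson's r of 0.71 with the choroid plexus and ependyma score and 0.70 with the mature oligodendrocyte score. Both r include any difference between the groups. The part of either tissue in the P2rx4 values was not tested.

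P2rx4 and P2rx7 were also compared with each other within each mouse, a comparison that does not depend on library scaling. The log2 ratio of P2rx4 over P2rx7 was 1.09 ± 0.23 in depleted mice and 0.62 ± 0.05 in control mice. The ratio was higher in every depleted mouse (0.85 to 1.36) than in any control mouse (0.57 to 0.69), a difference of 0.47 with p = 0.0286 in the exact two-sided permutation test, the smallest possible. All 36 pairs of members were compared in this way, and after Benjamini-Hochberg adjustment over them the exact test gave p = 0.171. Groups did not overlap in 6 of the 36 pairs, each with the same adjusted exact p of 0.171. Among them were Panx1 over Panx2 (difference 0.35), P2rx7 over Panx1 (difference -0.52) and P2rx3 over Panx1 (difference -0.56). Those pairs share Panx1, the member whose own groups did not overlap. The 36 pairs reuse the same members, so the 6 are not separate results. The share of such pairs over all genes was not computed. With 4 mice per group no pair could have reached an adjusted p under 0.05 unless many more pairs had been separated.

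Among the remaining P2X genes, known from neurons and muscle, P2rx5 and P2rx3 had 1 high control mouse, P2rx1 and P2rx2 were scarce, and P2rx6 was as steady as P2rx4. P2rx5, which encodes a subunit that forms weak channels by itself, had 0.762, 1.71, 1.34 and 1.17 CPM in depleted mice 1 to 4, and 3.89, 2.20, 1.60 and 1.20 CPM in control mice 1 to 4. The groups overlapped and control mouse 1 stood far above the rest. The log2 fold change of P2rx5 was -0.84 (SE 0.37, unadjusted p = 0.0483, adjusted p = 0.452, edgeR) and -0.42 (SE 0.30) without control mouse 1.

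P2rx3, a subunit gene of sensory neurons, showed the same control mouse apart. It had 1.23, 1.51, 1.52 and 1.28 CPM in depleted mice 1 to 4, and 2.92, 1.61, 1.56 and 1.48 CPM in control mice 1 to 4. Apart from control mouse 1, the mice of both groups lay within a narrow range. The log2 fold change of P2rx3 was -0.45 (SE 0.24, adjusted p = 0.533) in edgeR and -0.16 (SE 0.16) without that mouse. With the striatal score as a covariate the values were -0.06 for P2rx3 and -0.32 for P2rx5. Control mouse 1 had the lowest striatal score of all mice.

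P2rx6, whose subunit seldom forms channels without P2X2 or P2X4, had 6.60, 6.39, 7.85 and 8.35 CPM in depleted mice 1 to 4, and 8.13, 8.61, 7.20 and 7.42 CPM in control mice 1 to 4. The groups overlapped, and the log2 fold change was -0.10 (SE 0.11, adjusted p = 0.803, edgeR), or 93.1% of the control level with a 95% interval of 77.9% to 111%. Its exons share 13.9% of their length with Slc7a4 on the opposite strand, so part of its reads may belong to that gene. P2rx1, the platelet and smooth muscle receptor gene, had 6, 8, 14 and 10 counts in depleted mice 1 to 4, and 14, 23, 11 and 10 counts in control mice 1 to 4. P2rx2, which encodes a slowly desensitising neuronal channel, had 6, 11, 15 and 10 counts in depleted mice 1 to 4, and 14, 13, 11 and 3 counts in control mice 1 to 4. At this depth the 95% intervals were 34.1% to 112% of the control level for P2rx1 and 48.4% to 195% for P2rx2. A 2-fold decrease lies within both intervals and was thus not excluded.

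Panx1, the gene of the main ATP release channel, was the member whose groups were apart. It had 21.4, 20.1, 19.8 and 19.6 CPM in depleted mice 1 to 4, and 16.8, 17.9, 18.8 and 18.6 CPM in control mice 1 to 4. Every depleted mouse lay above every control mouse, by a small margin. The means were 20.2 ± 0.826 CPM in depleted mice and 18.0 ± 0.911 CPM in control mice, a log2 fold change of 0.17 (SE 0.07) or 112% of the control level, with a 95% interval of 101% to 125%. The exact two-sided permutation test gave p = 0.0286, the smallest possible for this design. Over all genes the difference did not pass (unadjusted p = 0.0327, adjusted p = 0.404 in edgeR).

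Panx2, the neuronal pannexin gene, had 85.2, 95.7, 79.7 and 84.0 CPM in depleted mice 1 to 4, and 109.8, 88.5, 96.5 and 95.5 CPM in control mice 1 to 4. Depleted mouse 2 lay above control mice 2 and 4, and the other 3 depleted mice lay below every control mouse. The log2 fold change of Panx2 was -0.18 (SE 0.08, unadjusted p = 0.0498, adjusted p = 0.455, edgeR), which is 88.3% of the control level.

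The level of Panx2 followed the striatal score. Over the 8 mice Pearson's r was -0.97 (exact permutation p = 2.98e-04, adjusted p = 0.00268 over the 9 members) and Spearman's rho -0.88 (exact permutation p = 0.00724, adjusted p = 0.0652). Without the 2 mice farthest from the median score (control mouse 1 and depleted mouse 3) r was -0.93, and after centring each group on its own mean it was -0.95. With the striatal score as a covariate the log2 fold change of Panx2 between depleted and control mice was -0.01 (SE 0.07), and depleted mouse 2, the depleted mouse with the highest Panx2, had the lowest striatal score of its group. The members P2rx3 (r = -0.77) and Panx1 (r = 0.71) had exact unadjusted p of 0.0197 and 0.0458 and adjusted p of 0.0887 and 0.114. Their Spearman's rho was weaker, at -0.43 and 0.62 (exact permutation p = 0.299 and 0.115). Without the same 2 mice r was -0.67 for P2rx3 and 0.44 for Panx1. After centring each group r was -0.65 for P2rx3 and 0.41 for Panx1. The adjusted p of these relations cover the 9 striatal ones only. Members were also correlated with the other marker scores, which the adjustment leaves out. P2rx7 had r = -0.54 (exact permutation p = 0.164) and a log2 fold change of -0.35 (SE 0.16, unadjusted p = 0.0545, adjusted p = 0.9999 in edgeR) with the covariate, the 1 of 17 alternatives in which its unadjusted p was above 0.05. The striatal genes mark medium spiny neurons, and the share of striatum in the tissue and expression within those cells cannot be told apart.

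**Figure D3:**
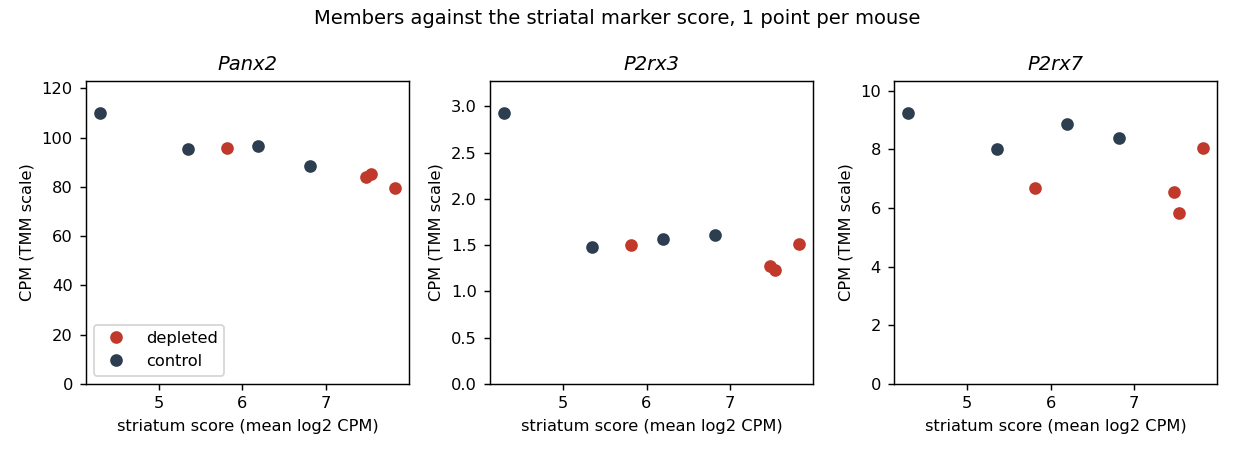
CPM of Panx2, P2rx3 and P2rx7 against the striatal marker score (mean log2 CPM of 10 genes), 1 point per mouse, depleted in red and control in dark blue. Panx2 declines along the score in both groups (r = -0.97), P2rx3 has its highest value in the control mouse with the lowest score, and P2rx7 lies below all control mice in depleted mice 1, 2 and 4.

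Some genes that act next to P2X7 and P2X4 passed the test. Of 12 tested inflammasome and interleukin-1 family genes 4 fell and none rose in edgeR, where 1.11% of all genes were called lower. DESeq2 called 5 of the list and 2.31% of all genes. The list median was -0.95 in edgeR, against -3.79e-04 over all genes tested. Nlrp3, the sensor that P2X7 activates, averaged 0.0633 ± 0.00644 CPM in depleted mice and 0.771 ± 0.128 CPM in control mice (log2 fold change -3.57, SE 0.27, adjusted p = 6.27e-05, edgeR), leaving 8.45% of the control level. Il1a, which encodes interleukin-1 alpha (-2.42, SE 0.33), Nlrp1b, another sensor gene (-3.66, SE 0.64), and Pycard, the adaptor gene (-1.12, SE 0.21), fell as well, at adjusted p of 0.00380, 0.0211 and 0.0345 in edgeR. In depleted mice Nlrp3, Il1a and Nlrp1b (0.0633, 0.103 and 0.0391 CPM) lay below the scarce P2rx1 and P2rx2 (0.170 and 0.189 CPM). The values of Nlrp3, Il1a and Nlrp1b in depleted mice thus rest on few counts. Nlrp1b and Pycard passed in 11 of 16 and 9 of 17 alternatives. Pycard was not called without each of depleted mice 1 and 3 and control mice 1 to 4 (adjusted p up to 0.122), nor Nlrp1b without depleted mouse 4 or control mouse 1 or 2 (adjusted p up to 0.0937). Neither was called with the replicate number as a block (adjusted p of 0.121 for Pycard and 0.186 for Nlrp1b) or with the striatal score as a covariate (0.185 for both). Nlrp1b has a close copy, Nlrp1a, so its counts are uncertain, and Pycard shares 12.8% of its exon length with a gene on the opposite strand. Gsdmd, which encodes the pore protein, and Casp1, the protease gene, had log2 fold changes of -0.96 and -0.98 and adjusted p of 0.118 and 0.404 in edgeR, while Il18 stood at 0.04. Gsdmd passed in 1 of 17 alternatives, DESeq2 (adjusted p = 0.00437). Casp1 also passed in 1 of 17, without depleted mouse 2, at -1.49 (adjusted p = 0.0292 in edgeR). With the striatal score as a covariate Casp1 was -0.30. Il1b, the gene of the cytokine most tied to P2X7, was below the count filter, with 21 counts over the depleted mice and 43 over the control mice.

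Among 14 partners and regulators of P2X7 and P2X4, the transcription factor genes Irf5 and Irf8 fell and the other 12 were not called in edgeR. Over all genes 1.11% were called lower in edgeR. DESeq2 called 3 of the list and 2.31% of all genes. Irf8 and Irf5 are known from mouse spinal microglia as a cascade that raises P2rx4 after nerve injury. Irf8 averaged 1.16 ± 0.241 CPM in depleted mice and 4.89 ± 1.04 CPM in control mice (log2 fold change -2.06, SE 0.21), and Irf5 kept 21.7% of its control level (-2.20, SE 0.21), at adjusted p of 4.93e-04 and 3.37e-04 in edgeR. Irf5 shares 14.1% of its exon length with Tnpo3 on the opposite strand. Both factors passed in all 17 alternatives. P2rx4 in the same mice was at 109% of its control level. Whether Irf5 or Irf8 acts on P2rx4 in forebrain was not tested. Kcnk6, a potassium channel gene coupled to P2X7 in macrophages, stood at -0.78 on the log2 scale (SE 0.17, adjusted p = 0.0819 in edgeR). Its groups did not overlap, as in 5.77% of all genes. Kcnk6 passed in 1 of 17 alternatives, DESeq2 (adjusted p = 0.00141). Kcnk13, the THIK-1 channel gene of microglia, stood at 0.25 (SE 0.17), and the list median was -0.05.

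Other routes of ATP release gave no call. Of 14 tested connexin, CALHM, LRRC8 and transporter genes 0 passed in edgeR, DESeq2 or limma-voom, 3 had an unadjusted p under 0.05 in edgeR (11.0% of all genes did), and the list median was -0.02. Slco2a1, a transporter gene that also forms an anion channel, stood at -0.73 (SE 0.23, adjusted p = 0.304). It passed in 1 of 17 alternatives, without depleted mouse 2, at -0.94 (adjusted p = 0.0454 in edgeR). With the striatal score as a covariate it was -0.33. Gjc3, an oligodendrocyte connexin gene, stood at 0.36 (SE 0.12, adjusted p = 0.327), beside mature oligodendrocyte markers with a list median of 0.47. Slc17a9, which encodes the vesicular nucleotide transporter, kept 86.8% of its control level (adjusted p = 0.752).

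The P2Y receptors, the G protein coupled receptors for the same nucleotides, include genes that passed the test. Of 6 tested P2Y genes 3 fell, P2ry13 (-6.50), P2ry12 (-4.51) and P2ry6 (-2.38), against 0 of 9 P2X and pannexin genes and 1.11% of all genes called lower. The medians were -0.18 for the P2X and pannexin genes and -1.54 for the P2Y genes. P2ry1, P2ry2 and P2ry14 were not called, at 0.53, -0.70 and 0.03. No test between the families was made.

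**Figure D4:**
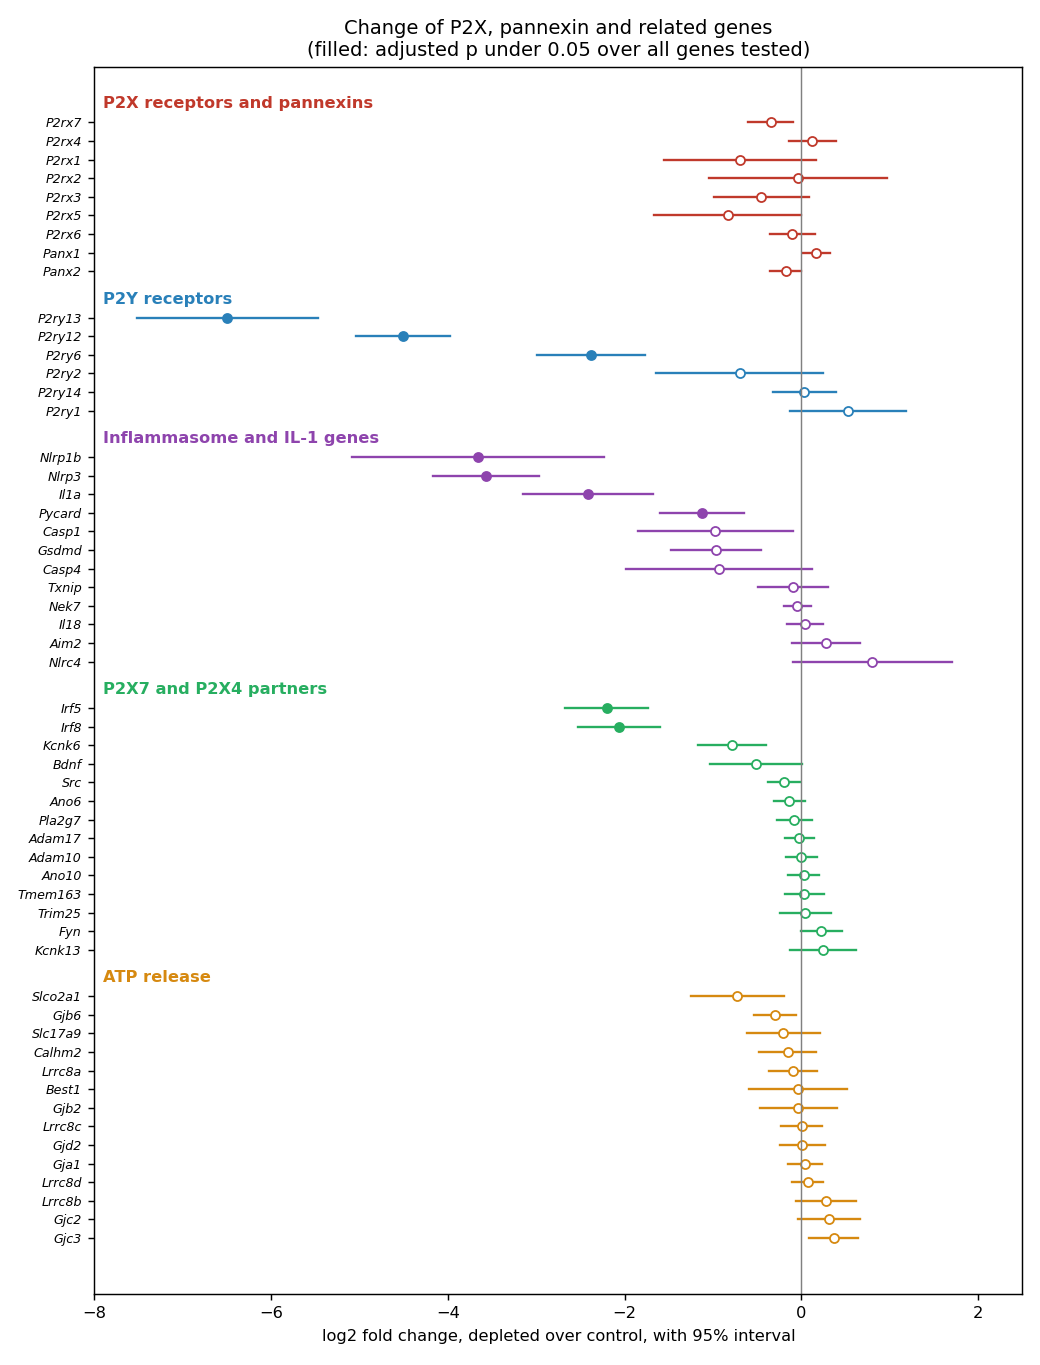
Log2 fold change, depleted over control, with its 95% interval for each tested gene of the 5 lists, filled where the adjusted p over all genes was under 0.05. All 9 P2X and pannexin genes have open symbols between -0.84 and 0.17, while 3 P2Y, 4 inflammasome and 2 partner genes have filled symbols on the negative side.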

How the data were processed

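The authors deposited 1 table of raw read counts per gene symbol for 8 libraries. The submitters' processing notes name FastQC, MultiQC, STAR, DESeq2 and DESeq and the build mm10, with no versions, and the strand setting was not given in the sources used here. GENCODE M21 held 93.3% of the symbols, and supplied coordinates, exon lengths and overlaps on that build. RefSeq gave the promoter windows.

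Counts were filtered (filterByExpr), scaled by TMM and tested with edgeR 4.0.16 (glmQLFit, glmQLFTest, R 4.3.3) without covariates, with Benjamini-Hochberg adjustment over all genes tested and a threshold of 0.05. Intervals are 95% intervals of the quasi-likelihood fit. Log2 CPM used a prior count of 2. Alternatives used DESeq2 1.42.0, limma-voom (limma 3.58.1), other scalings and filters, marker scores as covariates, the replicate number as a block, and leaving out each mouse. Steps were tested on simulated data. No replicate pair agreed within sampling noise (chi-square per gene at least 12.3 times the noise).

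Each sample is labelled as its own mouse. Members and gene lists were chosen with earlier results of these data known. The genes named were all members, up to 6 called members of each other list or its 2 with the smallest p, and Csf1r. Il1b, Gsdmd, Casp1, Il18, Kcnk6, Kcnk13, Slc17a9, P2ry1, P2ry2, P2ry14, Gpr17 and Sox10, and the ratios of member pairs, were chosen after values were seen.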

Additional observations from a re-analysis of the deposited data

Results flagged for a closer look

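P2rx3 in control mice had 1 sample far from the others. Control mouse 1 had 2.92 CPM, and the other control mice lay between 1.48 and 1.61 CPM. P2rx2 in depleted mice was likewise uneven, with depleted mouse 1 at 0.109 CPM and the other depleted mice between 0.206 and 0.224 CPM, values that rest on 6 to 15 counts. The gap to the nearest mouse, as a share of the group's range, was 0.912 for P2rx3 and 0.843 for P2rx2. In all 40 groups of 4 mice were examined, for members and marker scores, and chance flags about 1 in 20 such groups.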

How the results depend on the processing

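In all 17 alternative fits 0 members were called in either direction. Of 151 member fold changes in these fits 147 kept their direction, and the 4 that did not were all those of P2rx2, whose log2 fold change of -0.04 became 0.11 in limma-voom and ranged from -0.35 to 0.14 without single mice. P2rx1 and P2rx2 could not be fitted with the filter of 1 CPM in 4 samples. The 27 repeats of the exact permutation tests (prior count of 0.5, other scalings) kept direction and side of the threshold. Leaving out mice was not run for them. Over all genes 223 were lower and 11 higher. DESeq2 called 346 lower and 118 higher (74.6% lower against 95.3%). The higher count was 25 with no filter, 6 at 1 CPM in 4 samples, 4 with the replicate block, 2 with the striatal and 17 with the hypothalamic score as a covariate. Without single mice 178 to 441 genes were lower and 2 to 243 higher, with both highest counts without depleted mouse 2. Inflammasome genes called lower numbered 1 at 1 CPM in 4 samples, 2 with the replicate block, 2 with the striatal score and 2 to 5 without single mice, and ATP release genes 0 to 1. Replicate numbers do not pair the mice by any label: same-numbered deviations correlated at -0.22 to 0.37, and 2 of 8 mice correlated best with their own number. The block left 0 members called and 161 genes lower over all genes. Depth limits P2rx1 and P2rx2 most.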

Other observations

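For each member the 3 genes most like it over the 8 mice, by Pearson's r of log2 CPM among 13936 or 13937 genes at or above a mean log2 CPM of 1, had r from 0.938 to 0.996. These are the highest of very many values over 8 points that share library effects, so they describe these libraries only. Panx1 was most like Zfp617 (r = 0.996), a zinc finger gene, then 1500026H17Rik and Stx17 (both 0.97 to 0.98), the last a SNARE gene of autophagosome fusion. Panx2 was most like Ppm1g (0.98), a protein phosphatase gene, then Pigq and A2ml1. P2rx7 was most like Slc25a34 (0.97), then Igdcc3 and the plexin gene Plxnb2 (both 0.96). P2rx4 was most like Acad10 (0.99), an acyl-CoA dehydrogenase gene that ends 1047 kb before P2rx4 on the same chromosome, then Fam109a and Ttc25. P2rx6 was most like AC115910.1, Ell and Gm42991 (0.96 to 0.98), and P2rx5 most like Fkbpl, Pcgf1 and Khk (0.97 to 0.98). P2rx3 was most like Ahnak2, Gm5069 and Bin1 (all 0.97). The scarce P2rx1 and P2rx2 were most like Srsf9, Prkcsh and Ssc5d, and Gstm2, Kcne1l and Phlda3.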
